A study of Mus musculus with 24 samples.

Results

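The livers of male mice with a hepatocyte-specific knockout of caveolin-1 were compared between a diet deficient in methionine and choline (MCD diet) and a control diet that held both nutrients. These livers made up 6 of the 24 arrays of the study, 3 per diet, and were taken by the genotype, sex and diet of their labels. The mice carried floxed Cav1 alleles and a heterozygous Cre transgene under the albumin promoter (HepCAV1ko), a design meant to delete the gene in hepatocytes and to spare the other liver cells. The study still detected some CAV1 protein in lysates of knockout hepatocytes and names a leaky knockout system as the likely reason. All groups were kept on normal chow to 8 weeks of age, were then fed the MCD or the control diet for 4 weeks and gave whole liver RNA at 12 weeks. The other groups used below were HepCAV1ko females on the same diets and HepCAV1wt males, the floxed littermates without Cre, with 3 arrays per diet each. Arrays were numbered within each group. No label says that each came from its own mouse, so the p-values measure the spread between arrays.

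The MCD diet is a standard model of steatohepatitis. Without choline the liver makes less phosphatidylcholine, the lipid that coats secreted lipoproteins, and retains triglyceride, while a lack of methionine limits S-adenosylmethionine and glutathione and is sensed as amino acid shortage. Male and female mouse livers also differ in the expression of many cytochromes and secreted proteins, which follow the sex-specific pattern of growth hormone release through the transcription factor STAT5b.

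Expression was measured on Affymetrix MoGene 2.0 ST arrays and is given as log2 RMA values, that is, background-corrected, quantile-normalised and summarised probe intensities. A log2 fold change is the mean of the 3 MCD arrays minus the mean of the 3 control arrays, and its SE, like the adjusted p, comes from limma over all 24 arrays and 24704 genes. A gene was said to rise or fall when its adjusted p was under 0.05. The arrays of a diet correlated at 0.983 to 0.991 and arrays of different diets at 0.972 to 0.980. All 6 arrays exceeded every female array in the 3 Y-linked genes measured, and the summed level of 9 hepatocyte markers was 55989 to 59885 in the control arrays and 57852 to 60300 in the MCD arrays. Cav1 itself, read in whole liver, was 4.02, 3.76 and 3.51 in the control arrays and 3.96, 4.21 and 4.36 in the MCD arrays, with overlapping groups (log2 fold change 0.41, SE 0.24, adjusted p = 0.372). In HepCAV1wt males its mean was 4.42 ± 0.55 (SD, n = 3) under the control diet and 4.22 ± 0.20 under the MCD diet. Where the probes lie relative to the floxed part of the gene was not checked. One control array, replicate 3, stood apart in acute phase genes and had the lowest weight of the 6 when arrays were weighted by their residuals (0.647).

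The MCD diet changed the expression of 1640 of 24704 genes (6.64%) in HepCAV1ko males, of which 894 rose (3.62%) and 746 fell (3.02%). Among these, 317 rose and 178 fell by more than 2-fold. In 2805 genes (11.4%) all 3 MCD arrays lay above all 3 control arrays, and in 2942 (11.9%) they lay below. The count fell to between 913 and 1255 genes when single arrays were left out, with 913 without MCD replicate 1 and 1082 without control replicate 3. The median log2 fold change over all genes was -0.02. Counts of list members below are to be read beside the shares of all genes, 3.62% that rose and 3.02% that fell.

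Of the 12 largest rises, 5 were on the list of female-biased liver genes, 3 on that of lipid-associated macrophages and 2 on that of PPARalpha targets. Of the 12 largest falls, 7 were on the list of male-biased liver genes. Members of all gene lists were chosen with earlier results of these data known. Counts of list members here and below are therefore descriptions and no independent support. Some genes are on several lists and count in each. Fgf21 is on those of the integrated stress response and PPARalpha targets, and Psat1 and Mthfd2 on those of the integrated stress response and folate. The gene that rose most was Cyp2b9, a cytochrome P450 that is typical of female liver, with 4.56, 3.24 and 2.33 in the control arrays and 10.11, 10.58 and 10.88 in the MCD arrays. Every MCD array lay far above every control array (log2 fold change 7.15, SE 0.36, adjusted p = 5.2e-11). The estrogen sulfotransferase Sult1e1 followed (log2 fold change 5.56, SE 0.49, adjusted p = 2.1e-07). Then came the macrophage elastase Mmp12 (log2 fold change 5.40, SE 0.79, adjusted p = 1.6e-04) and Sprr1a, a cornified envelope protein made by injured epithelia (log2 fold change 4.998, SE 0.95, adjusted p = 0.00198). The gene that fell most was Moxd1, a monooxygenase that is typical of male liver, with 8.53, 9.17 and 9.60 in the control arrays and 2.54, 2.56 and 2.29 in the MCD arrays. At their closest the groups were 5.55 log2 units apart in Cyp2b9 and 5.97 in Moxd1. The pseudogene Serpina4-ps1 (-5.998), the 3-ketosteroid reductase Hsd3b5 (-4.57) and the major urinary protein Mup21 (-4.51) fell next. The remaining largest rises were Cyp4a14, Cyp2a4, Gpnmb, Cyp4a31, Atp6v0d2, Gm11695, the monocarboxylate transporter Slc16a5 and Cyp2b13, with log2 fold changes of 3.97 to 4.72. The remaining largest falls were Elovl3, Cyp4a12a, Cyp7b1, Gm4450, the carboxylesterase Ces3b, Scd1, Mup9 and the sodium channel subunit Scnn1a, with log2 fold changes of -2.94 to -4.17. Cyp2b, Cyp2c, Cyp4a, Mup, Gstm, Ugt and Serpina genes have near-identical relatives, and how far their probes share signal was not tested.

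**Figure D1:**
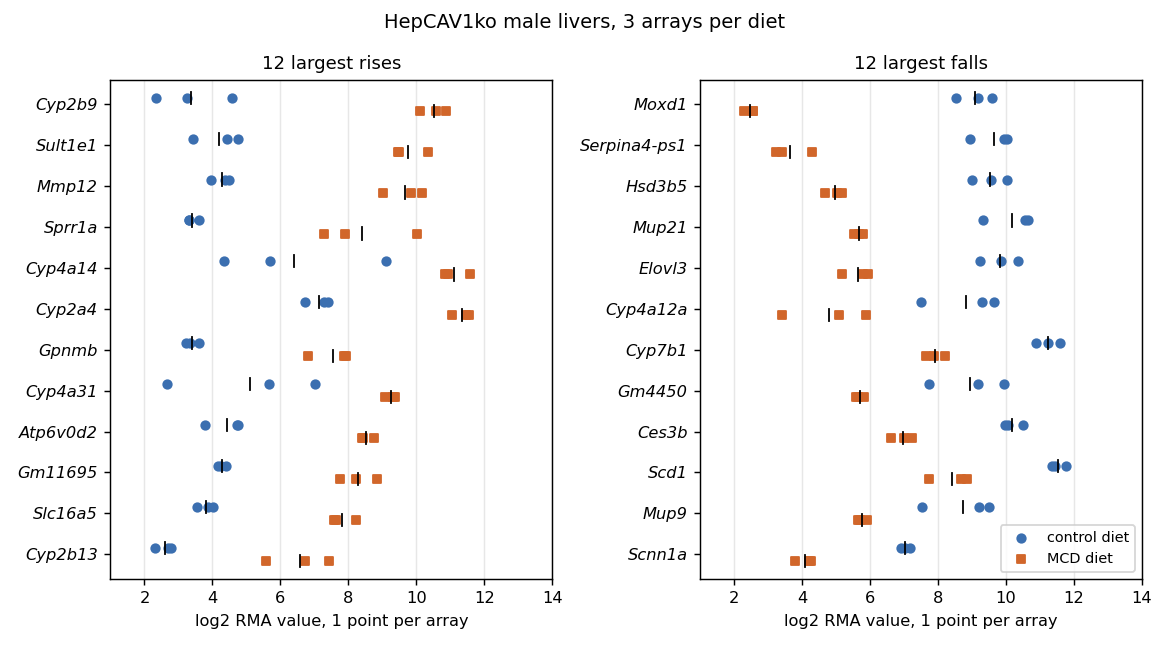
Log2 RMA values of the 12 genes that rose most and the 12 that fell most on the MCD diet among those whose arrays did not overlap, with 1 point per array (circles, control diet; squares, MCD diet) and a bar at each mean. Cyp2b9 went from at most 4.56 in the control arrays to at least 10.11 in the MCD arrays, and Moxd1 from at least 8.53 to at most 2.56.

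Of the genes known as male-biased in mouse liver, 1 of 24 measured rose (2 without control replicate 1) and 18 fell, at a median of -2.57 log2 units. This list, like that of female-biased genes, was chosen with earlier results of these data known, so its counts are a description. The only member that rose was Nat8f5, which encodes an acetyltransferase-like protein and was chosen for naming after its values were seen (log2 fold change 1.60, SE 0.29, adjusted p = 0.00134). Elovl3, an elongase of very long chain fatty acids, was 9.86, 10.35 and 9.22 in the control arrays and 5.80, 5.18 and 5.94 in the MCD arrays (log2 fold change -4.17, SE 0.45, adjusted p = 3.4e-06). The testosterone-responsive fatty acid hydroxylase Cyp4a12a was 9.63, 9.29 and 7.50 in the control arrays and 5.07, 3.42 and 5.89 in the MCD arrays (log2 fold change -4.02, SE 0.50, adjusted p = 2.0e-05). Cyp7b1, the oxysterol hydroxylase of the alternative bile acid pathway, was 11.24, 11.58 and 10.88 in the control arrays and 7.65, 7.88 and 8.19 in the MCD arrays (log2 fold change -3.33, SE 0.29, adjusted p = 2.6e-07). In these 3 genes and in Moxd1, Mup21, Hsd3b5 and Serpina4-ps1 every MCD array was below every control array. The steroid hydroxylase Cyp2d9 fell by less (log2 fold change -1.40, SE 0.31, adjusted p = 0.00708). The count of members that fell was 17 or 18 of 24 whichever array was left out.

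Of the female-biased genes, 12 of 27 measured rose and 1 fell (2 without MCD replicate 1), at a median of 0.71 log2 units. Besides Cyp2b9 and Sult1e1, the steroid hydroxylase Cyp2a4 was 7.41, 7.29 and 6.73 in the control arrays and 11.56, 11.46 and 11.04 in the MCD arrays (log2 fold change 4.21, SE 0.27, adjusted p = 4.1e-09). Atp6v0d2, a subunit of the proton pump that is also a macrophage gene, rose by 4.11 and the organic anion transporter Slc22a26 by 2.92 on the log2 scale. Other female-biased genes did not pass. The transcription factor Cux2 had a log2 fold change of -0.09 (adjusted p = 0.89) and the plasma glycoprotein A1bg one of 0.19 (adjusted p = 0.836). The bile acid sulfotransferase Sult2a1 was at -0.02 (adjusted p = 0.991). The values of Cux2 and Sult2a1 changed sign with the array left out. The count of rises was 12 of 27 whichever array was left out. The fall in this list was Cyp2c40, named after its values were seen, at -2.37.

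The diet effect was set against that in HepCAV1ko females in the same fit. It differed in 43 genes (0.174%), higher in males in 25 (0.101%) and lower in 18 (0.0729%), and 9 of the 24 male-biased and 11 of the 27 female-biased genes were among them. Of the 43, 37 had passed in males, 22 as rises and 15 as falls, and 31 of these had not passed in females. Cyp2b9 had the largest difference (difference 7.62, SE 0.51, adjusted p = 1.8e-08). Its mean under the control diet was 3.38 ± 1.12 (SD, n = 3) in males and 11.93 ± 0.24 in females. Under the MCD diet it was 10.53 ± 0.39 and 11.46 ± 0.17. Moxd1 differed the other way (difference -6.69, SE 0.48, adjusted p = 4.3e-08), with 9.10 ± 0.54 in males and 2.34 ± 0.30 in females under the control diet and 2.46 ± 0.15 and 2.39 ± 0.08 under the MCD diet. In both genes the male mean on the MCD diet came to lie within 2 units of the female mean, whereas on the control diet the sexes were more than 6 units apart. The levels of the sexes were not tested against each other. Moxd1 in females was below the median of all genes (3.83) on both diets, so a fall as large as that of males could not have been measured there. The same held for Cyp4a12a and the complement gene C4a in females and, for the falls of females, for Cyp3a16 and Sult3a1 in males. Nor could Cyp2b9, at 11.93 in control females, have shown a rise of 7.15. Cyp2a4 and Cyp2b13, at 11.32 and 10.33 in control females, also had less room to rise than in males, where they rose by 4.21 and 3.97. Mup21 and Gm4450, at 4.89 and 5.18 in control females, had less room to fall than in males. Their log2 fold changes in males were -4.51 and -3.26. Ftl1 lay below the median of all genes in both sexes on both diets.

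Cyp2a4 (difference 3.62, SE 0.39, adjusted p = 3.3e-05) had a mean of 7.14 ± 0.36 in control males and 11.35 ± 0.28 in MCD males beside 11.32 ± 0.21 and 11.91 ± 0.25 in the females. Cyp4a12a (difference -4.42, SE 0.70, adjusted p = 0.00396) fell in males to 4.79 ± 1.26 and stayed above the female means of 2.12 ± 0.24 and 2.53 ± 0.19. The differences of Cyp2b13, Cyp2c38, Cyp7b1, Gm4450, Slc16a5 and Ccnd1 also passed, with every array left out. Those of Mup21, Slc22a26 and Atp6v0d2 passed with all arrays but were lost without 10, 10 and 5 of the 12 arrays, with adjusted p of up to 0.0995, 0.101 and 0.076. Cyp2d9 fell in males and rose in females, by 1.81 on the log2 scale (difference -3.21, SE 0.44, adjusted p = 8.3e-04). The ectonucleotidase Nt5e, named after its values were seen, rose in males (1.33) and fell in females (-0.89). These 2 were the only genes of the 43 that passed in both sexes with opposite signs. For Cyp3a16 and Sult3a1 the difference came from the females, in which they fell by 5.44 and 4.66 on the log2 scale, while all 6 male arrays lay between 1.63 and 1.93 for Cyp3a16 and between 1.89 and 2.01 for Sult3a1.

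**Figure D2:**
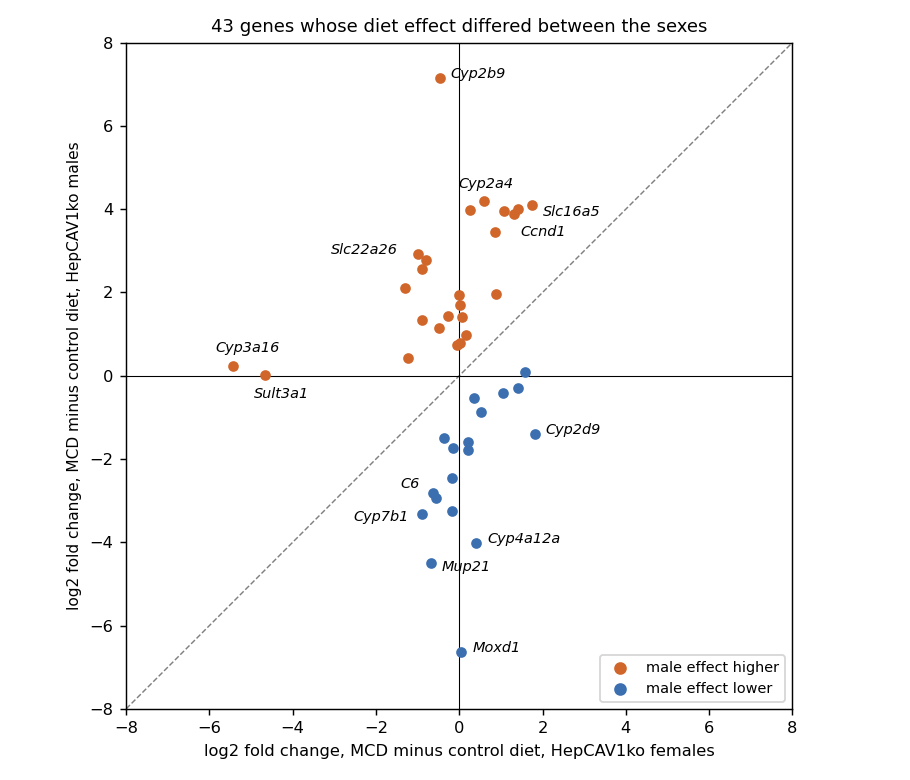
Log2 fold change on the MCD diet in HepCAV1ko males (y axis) against HepCAV1ko females (x axis) for the 43 genes whose diet effect differed between the sexes, with the dashed line marking equal effects. Cyp2b9 lies at 7.15 in males and -0.47 in females, Moxd1 at -6.64 and 0.05, and Cyp3a16 at 0.23 and -5.44.

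Growth hormone acts through its receptor, JAK2 and STAT5b, and IGF1 is its main endocrine product in liver. Of this axis, 2 of 20 measured rose (1 without control replicate 1 or 2 or MCD replicate 1, 2 or 3) and 3 fell, at a median of -0.20 log2 units. The receptor Ghr was 10.44, 10.46 and 10.12 in the control arrays and 9.40, 9.15 and 9.41 in the MCD arrays, with no overlap (log2 fold change -1.02, SE 0.13, adjusted p = 3.7e-05). Igf1 fell (log2 fold change -0.48, SE 0.11, adjusted p = 0.0081). So did Igfals, the subunit that stabilises circulating IGF1 (log2 fold change -0.60, SE 0.15, adjusted p = 0.0147), although that call was lost without control replicate 2 (adjusted p = 0.0856) or MCD replicate 1 (adjusted p = 0.0802). The binding protein Igfbp2 rose (log2 fold change 1.31, SE 0.22, adjusted p = 6.7e-04). So did Igfbp1 (log2 fold change 2.27, SE 0.62, adjusted p = 0.0304), whose call was lost without control replicate 1 (adjusted p = 0.064), control replicate 2 (adjusted p = 0.123), MCD replicate 1 (adjusted p = 0.0927), MCD replicate 2 (adjusted p = 0.0771) or MCD replicate 3 (adjusted p = 0.069). Stat5b was lower in all 3 MCD arrays but did not pass (-0.40, adjusted p = 0.0829), and its feedback inhibitors Cish (adjusted p = 0.778) and Socs2 (adjusted p = 0.931) did not pass either. In the 250 bases upstream of the start site, the STAT5 letters TTCNNNGAA, read on both strands, stood in 2 of 16 male-biased and 4 of 21 female-biased promoters, that is 12.5% and 19%, against 7.18% of all 27025 promoters. Promoters were found for 11 of the 18 male-biased genes that fell and for 10 of the 12 female-biased genes that rose. The letters stood in 1 of these 11 (9.09%) and in 1 of these 10 (10%).

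Cytochromes that respond to the xenobiotic receptors CAR and PXR moved in both directions: 7 of 20 measured rose and 2 fell, at a median of 0.25 log2 units. Of those outside the female-biased list, the epoxygenase Cyp2c55 was 3.69, 2.94 and 2.81 in the control arrays and 7.33, 5.32 and 5.86 in the MCD arrays (log2 fold change 3.02, SE 0.45, adjusted p = 1.9e-04). The main drug-metabolising form Cyp3a11 was 10.84, 10.13 and 9.46 in the control arrays and 12.12, 11.84 and 12.28 in the MCD arrays (log2 fold change 1.94, SE 0.25, adjusted p = 2.6e-05). Cyp2b10, the classic CAR target, rose by 1.97 on the log2 scale (adjusted p = 0.0283), with MCD replicate 3 at 6.89 beside 5.08 and 4.69. Its call was lost without control replicate 1 (adjusted p = 0.0584), control replicate 2 (adjusted p = 0.0959), control replicate 3 (adjusted p = 0.0573) or MCD replicate 3 (adjusted p = 0.177). The receptor gene Nr1i3 (CAR) was not among the calls (0.38, adjusted p = 0.36).

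The integrated stress response is the program by which phosphorylated eIF2alpha raises the translation of ATF4, which then drives amino acid synthesis, transport and stress hormones. Of its genes, 12 of 22 measured rose and 0 fell, at a median of 0.81 log2 units. The stress-induced chromatin protein Nupr1 was 4.96, 4.85 and 5.36 in the control arrays and 9.90, 9.23 and 7.28 in the MCD arrays (log2 fold change 3.75, SE 0.75, adjusted p = 0.00323). The hormone Fgf21 was 4.56, 4.72 and 4.62 in the control arrays and 8.66, 8.40 and 7.16 in the MCD arrays (log2 fold change 3.44, SE 0.52, adjusted p = 1.9e-04). Asparagine synthetase, Asns, was 3.68, 4.10 and 4.03 in the control arrays and 7.30, 6.70 and 6.80 in the MCD arrays (log2 fold change 2.998, SE 0.33, adjusted p = 4.7e-06). In Nupr1 and Fgf21 the lowest MCD array was replicate 3, and in all 3 genes the lowest MCD array stood at least 1.91 units above the highest control array. The transcription factor Atf3 (log2 fold change 2.29, SE 0.29, adjusted p = 3.0e-05) and the cystine transporter Slc7a11, named after its values were seen (log2 fold change 1.73, SE 0.41, adjusted p = 0.0123), rose as well. Ddit3 (CHOP) rose by 1.28 and the pseudokinase Trib3 by 1.29 on the log2 scale. The first call was lost without control replicate 3 (adjusted p = 0.0569) or MCD replicate 2 (adjusted p = 0.0536) and the second without MCD replicate 1 (adjusted p = 0.0579) or MCD replicate 2 (adjusted p = 0.0877). Chaperones of the endoplasmic reticulum, the targets of the other branches of the unfolded protein response, had few calls: 1 of 20 measured rose and 0 fell (1 without control replicate 1 or MCD replicate 1), at a median of -0.08 log2 units. The rise was the selenoprotein Selenos (log2 fold change 0.70, SE 0.15, adjusted p = 0.00587), and the chaperone Hspa5 (BiP) was at 0.37 (adjusted p = 0.252).

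ATF4 binds as a dimer with C/EBP proteins at an element whose letters are TGATGNAA. Promoters were found for 18 of the 22 members measured and for 11 of the 12 that rose. These letters, on either strand of the 250 bases upstream of the start site, were held by 6 of the 18 and 5 of the 11, that is 33.3% and 45.5%, against 3.53% of all 27025 mouse promoters. The list was drawn from known ATF4 targets, so this count is a description. The 5 stretches are shown because these genes carried the larger rises of the list, from RefSeq on GRCm38.p6, 5′ to 3′ on the gene's strand, from 250 bases upstream to the base before the start site, with the matching letters (or their reverse complement) in capitals.
Asns (chr6:7693210-7693459, minus strand): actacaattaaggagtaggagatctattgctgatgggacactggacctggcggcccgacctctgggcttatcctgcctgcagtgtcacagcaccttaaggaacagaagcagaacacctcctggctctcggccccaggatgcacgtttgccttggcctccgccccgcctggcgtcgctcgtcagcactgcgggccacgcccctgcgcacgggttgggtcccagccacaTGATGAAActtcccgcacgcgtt
Atf3 (chr1:191183334-191183583, minus strand): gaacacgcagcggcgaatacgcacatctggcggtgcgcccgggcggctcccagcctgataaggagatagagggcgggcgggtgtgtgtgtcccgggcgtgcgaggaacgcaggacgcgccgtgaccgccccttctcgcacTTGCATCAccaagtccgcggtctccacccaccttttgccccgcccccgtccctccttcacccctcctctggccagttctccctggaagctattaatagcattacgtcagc
Fgf21 (chr7:45615491-45615740, minus strand): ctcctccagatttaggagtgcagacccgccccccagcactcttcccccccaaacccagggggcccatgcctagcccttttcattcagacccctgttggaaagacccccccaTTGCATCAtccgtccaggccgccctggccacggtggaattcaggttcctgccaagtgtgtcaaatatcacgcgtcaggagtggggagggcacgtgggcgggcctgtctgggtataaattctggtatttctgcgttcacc
Nupr1 (chr7:126625471-126625720, minus strand): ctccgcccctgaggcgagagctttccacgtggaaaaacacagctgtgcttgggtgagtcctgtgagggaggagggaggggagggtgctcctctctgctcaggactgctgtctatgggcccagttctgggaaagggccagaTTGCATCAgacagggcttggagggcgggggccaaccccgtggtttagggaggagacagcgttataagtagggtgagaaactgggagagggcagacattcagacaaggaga
Slc7a11 (chr3:50443614-50443863, minus strand): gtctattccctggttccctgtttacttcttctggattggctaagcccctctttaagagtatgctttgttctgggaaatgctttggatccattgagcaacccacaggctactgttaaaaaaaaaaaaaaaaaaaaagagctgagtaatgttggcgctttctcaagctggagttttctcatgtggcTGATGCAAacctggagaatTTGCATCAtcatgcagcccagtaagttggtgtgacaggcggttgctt
The match began 23 bases before the start site in Asns, 110 in Atf3 and in Nupr1, 139 in Fgf21, and 66 and 47 in Slc7a11. In Atf3, Fgf21 and Nupr1 it lay on the opposite strand, in Asns on the gene's strand, and Slc7a11 held 1 of each.

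In the nutrient pathways that the diet addresses, most genes did not pass. Of the methionine cycle and transsulfuration, 0 of 14 measured rose and 2 fell (1 without control replicate 2 or 3 or MCD replicate 3), at a median of -0.23 log2 units. The adenosylhomocysteine hydrolase Ahcy was 6.62, 6.48 and 6.25 in the control arrays and 5.54, 5.41 and 6.05 in the MCD arrays (log2 fold change -0.78, SE 0.17, adjusted p = 0.00654). Cystathionine synthase, Cbs, fell by 0.70 on the log2 scale (adjusted p = 0.0227), a call that was lost without control replicate 2 (adjusted p = 0.0638), control replicate 3 (adjusted p = 0.135) or MCD replicate 3 (adjusted p = 0.138). Both lie on the route that passes the sulfur of methionine to cysteine. The liver adenosylmethionine synthetase Mat1a was higher in all 3 MCD arrays without passing (0.35, adjusted p = 0.0879), and Bhmt, which remethylates homocysteine from betaine, did not pass (-0.36, adjusted p = 0.367). The glycine methyltransferase Gnmt did not pass either (-0.50, adjusted p = 0.139).

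Of the folate and serine genes, 3 of 11 measured rose and 1 fell (0 without control replicate 2 or MCD replicate 1 and 2 without MCD replicate 3), at a median of -0.12 log2 units. The mitochondrial enzymes Mthfd2 (log2 fold change 1.57, SE 0.27, adjusted p = 9.1e-04) and Mthfd1l (log2 fold change 1.39, SE 0.24, adjusted p = 9.3e-04) and the serine synthesis enzyme Psat1 (log2 fold change 1.63, SE 0.25, adjusted p = 2.5e-04) rose. The histidine-degrading enzyme Ftcd fell, a call that was lost without control replicate 2 (adjusted p = 0.0661) or MCD replicate 1 (adjusted p = 0.135). Of the choline and phosphatidylcholine genes, 1 of 15 measured rose (0 without any one of the 6 arrays) and 3 fell (1 without control replicate 3 or MCD replicate 1), at a median of -0.02 log2 units. Chpt1, the last enzyme of the CDP-choline route, was 8.76, 8.67 and 8.29 in the control arrays and 7.46, 7.14 and 7.99 in the MCD arrays (log2 fold change -1.04, SE 0.23, adjusted p = 0.00581). Pemt, which makes phosphatidylcholine by methylating phosphatidylethanolamine, was 10.62, 10.58 and 10.67 in the control arrays and 10.97, 10.99 and 11.19 in the MCD arrays (log2 fold change 0.43, SE 0.12, adjusted p = 0.0286). This call was lost without any one of the 6 arrays (adjusted p 0.0514 to 0.129). The choline transporter Slc44a1 fell by 0.52 on the log2 scale, a call lost without control replicate 3 (adjusted p = 0.116) or MCD replicate 1 (adjusted p = 0.11). The sarcosine dehydrogenase Sardh fell by 0.53, a call lost without control replicate 1 (adjusted p = 0.129), control replicate 2 (adjusted p = 0.136), control replicate 3 (adjusted p = 0.0616), MCD replicate 1 (adjusted p = 0.215) or MCD replicate 2 (adjusted p = 0.156). Choline kinase, Chka, did not pass (0.27, adjusted p = 0.643).

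Lipid storage and uptake genes rose in part. Of this list, 7 of 22 measured rose and 1 fell, at a median of 0.24 log2 units. Cidec, which fuses lipid droplets, was 3.81, 3.88 and 4.28 in the control arrays and 8.47, 7.95 and 7.35 in the MCD arrays (log2 fold change 3.93, SE 0.43, adjusted p = 4.7e-06). The fatty acid translocase Cd36 was 7.56, 6.52 and 7.10 in the control arrays and 9.97, 9.02 and 9.49 in the MCD arrays (log2 fold change 2.43, SE 0.26, adjusted p = 2.9e-06). Lipoprotein lipase, Lpl, and the droplet coat protein Plin2 rose by 2.23 and 1.56 on the log2 scale (adjusted p = 0.00401 and 1.2e-04). No MCD array overlapped a control array in these 4 genes. The one member that fell was Slc27a5, a fatty acid and bile acid CoA ligase (log2 fold change -1.34, SE 0.18, adjusted p = 6.8e-05).

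PPARalpha is the nuclear receptor that fatty acids activate to induce their own oxidation. Of its targets, 9 of 25 measured rose and 0 fell, at a median of 0.49 log2 units. Acot2, a mitochondrial acyl-CoA thioesterase, was 6.95, 6.53 and 6.42 in the control arrays and 9.74, 9.16 and 9.78 in the MCD arrays (log2 fold change 2.93, SE 0.28, adjusted p = 8.5e-07). The fatty acid hydroxylase Cyp4a14 was 9.12, 5.70 and 4.34 in the control arrays and 10.92, 10.83 and 11.56 in the MCD arrays (log2 fold change 4.72, SE 0.79, adjusted p = 6.3e-04), so that control replicate 1 stood 3.42 units above the next control array. Its relative Cyp4a31 rose too (log2 fold change 4.13, SE 0.78, adjusted p = 0.00181) over control arrays at 7.03, 5.67 and 2.66. Cyp4a10 did not pass (log2 fold change 1.60, SE 0.65, adjusted p = 0.166), with control arrays at 10.16, 8.29 and 6.38 and MCD arrays at 9.59, 9.89 and 10.15. Without control replicate 1 its log2 fold change was 2.54 (adjusted p = 0.0124). The count of targets that rose ranged from 7, without control replicate 3, to 13 when single arrays were left out. Acot1 did not pass (-0.28, adjusted p = 0.842), and its sign turned without control replicate 1.

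**Figure D3:**
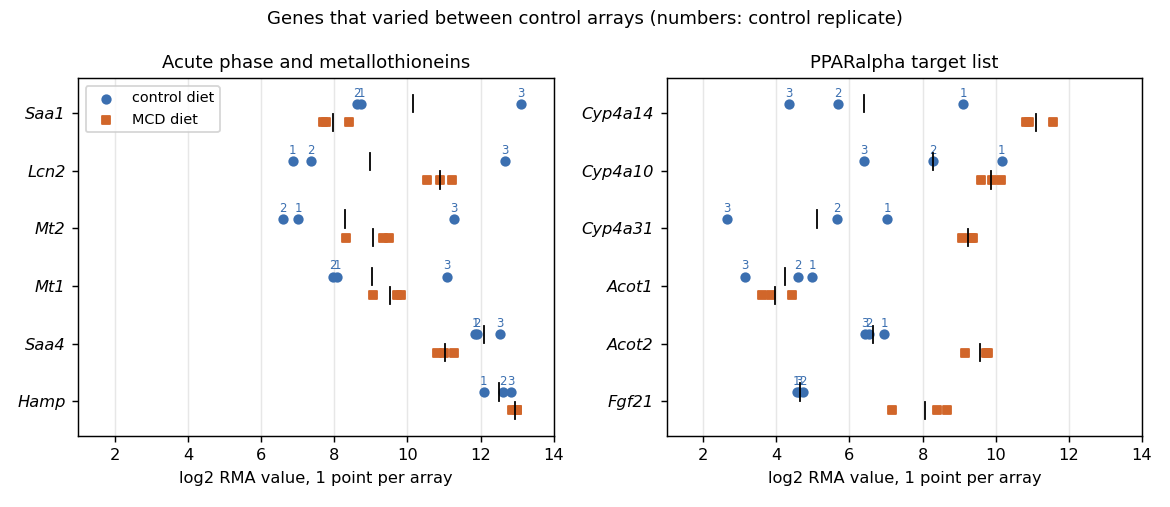
Log2 RMA values of acute phase and metallothionein genes (left) and of PPARalpha targets (right) in the 3 control arrays (circles, with the replicate number) and 3 MCD arrays (squares), with a bar at each mean. Control replicate 3 reached 13.10 in Saa1 and 12.66 in Lcn2, and control replicate 1 reached 9.12 in Cyp4a14.

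Most fatty acid synthesis genes did not pass: 2 of 19 measured rose and 2 fell (1 without any one of the 6 arrays), at a median of 0.23 log2 units. Rises and falls were each 10.5% of the list, against 3.62% and 3.02% of all genes. The desaturase Scd1 was 11.75, 11.45 and 11.36 in the control arrays and 8.69, 8.84 and 7.72 in the MCD arrays (log2 fold change -3.10, SE 0.46, adjusted p = 1.8e-04). The polyunsaturated desaturases Fads1 (log2 fold change 0.57, SE 0.12, adjusted p = 0.00582) and Fads2 (log2 fold change 0.89, SE 0.17, adjusted p = 0.00183) rose. The regulator Srebf1 had a log2 fold change of -0.999 (adjusted p = 0.0489) and passed as a fall, a call lost without any one of the 6 arrays (adjusted p 0.0591 to 0.163). The fatty acid synthase Fasn did not pass (0.66, adjusted p = 0.507). Of the lipoprotein genes, 2 of 16 measured rose (1 without control replicate 1 or 2 or MCD replicate 2 or 3) and 0 fell, at a median of 0.06 log2 units. Apoa4 was 11.39, 10.40 and 10.83 in the control arrays and 12.96, 13.14 and 12.96 in the MCD arrays (log2 fold change 2.15, SE 0.25, adjusted p = 8.9e-06). The other rise was Apoa5 (0.60, adjusted p = 0.0282), lost without control replicate 1 (adjusted p = 0.0886), control replicate 2 (adjusted p = 0.133), MCD replicate 2 (adjusted p = 0.129) or MCD replicate 3 (adjusted p = 0.0792). Apob (adjusted p = 0.756) and Mttp (adjusted p = 0.524), which load triglyceride onto secreted particles, did not pass. In cholesterol synthesis 0 of 19 measured rose and 2 fell (1 without control replicate 2 or 3 or MCD replicate 2), at a median of 0.21 log2 units. The falls were the sterol reductase Tm7sf2 (log2 fold change -1.16, SE 0.19, adjusted p = 5.7e-04) and the isomerase Ebp, the latter lost without control replicate 2 (adjusted p = 0.0512), control replicate 3 (adjusted p = 0.0533) or MCD replicate 2 (adjusted p = 0.113). The synthase Hmgcs1 (0.69, adjusted p = 0.435) and the epoxidase Sqle (0.31, adjusted p = 0.739) did not pass.

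Bile acid genes changed in both directions: 4 of 22 measured rose (2 without control replicate 3) and 5 fell, at a median of -0.14 log2 units. The transporter subunit Slc51b was 3.11, 2.69 and 2.91 in the control arrays and 5.60, 5.69 and 5.41 in the MCD arrays (log2 fold change 2.66, SE 0.30, adjusted p = 5.1e-06). The exporter Abcc4 rose too, with a log2 fold change of 1.51 (adjusted p = 6.8e-04). Cyp7a1, the rate-limiting enzyme of bile acid synthesis, did not pass (0.66, adjusted p = 0.526). The sterol 12-hydroxylase Cyp8b1 had a log2 fold change of -1.09 (adjusted p = 0.118) and passed without control replicate 3 (adjusted p = 0.0356) or MCD replicate 3 (adjusted p = 0.0162).

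NRF2 is the transcription factor that electrophiles and oxidants release to induce glutathione and detoxification enzymes. Of its targets and the glutathione enzymes, 11 of 29 measured rose and 0 fell (1 without control replicate 3), at a median of 0.42 log2 units. The glutathione transferase Gstm3 was 6.90, 7.66 and 6.95 in the control arrays and 11.30, 10.43 and 10.66 in the MCD arrays (log2 fold change 3.63, SE 0.28, adjusted p = 3.8e-08). Its relative Gstm2 (log2 fold change 1.97, SE 0.15, adjusted p = 2.3e-08), Gsta4, which conjugates lipid aldehydes (log2 fold change 1.84, SE 0.23, adjusted p = 2.5e-05), and Nqo1, a quinone reductase (log2 fold change 2.10, SE 0.23, adjusted p = 4.7e-06), rose. Nqo1 was 4.29, 3.83 and 3.93 in the control arrays and 5.93, 6.18 and 6.25 in the MCD arrays, so the groups were 1.64 units apart at their closest. Heme oxygenase, Hmox1, rose by 1.57 (adjusted p = 0.00645), and Gclc, the catalytic subunit of the rate-limiting enzyme of glutathione synthesis, did not pass (0.32, adjusted p = 0.357). Promoters were found for 24 of the 29 members measured and for 8 of the 11 that rose. The letters TGANNNNGC, the core of the antioxidant response element, stood in 11 of these 24 (45.8%) and in 5 of these 8 (62.5%), against 35.1% of all promoters.

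Most macrophage genes of 1 list rose. Lipid-associated macrophages are the TREM2-positive cells that gather in fatty tissue, and of their genes 16 of 20 measured rose and 0 fell, at a median of 1.51 log2 units. A negative log2 fold change was found in 1 of the 20, at -1.50. All its MCD arrays lay below all its control arrays, but it did not pass. The summed level of the list, on the linear scale, was 4566 to 5555 in the control arrays and 10073 to 12999 in the MCD arrays. Plin2 and Lpl are also on the lipid droplet list, Atp6v0d2 on the female-biased list and Ctsb and Ctsd on the lysosome list. The sum is therefore not specific to macrophages, and which cells gave it was not tested. Mmp12 was 3.97, 4.49 and 4.36 in the control arrays and 10.16, 9.84 and 9.02 in the MCD arrays. The membrane glycoprotein Gpnmb was 3.61, 3.23 and 3.35 in the control arrays and 7.94, 7.87 and 6.80 in the MCD arrays (log2 fold change 4.14, SE 0.94, adjusted p = 0.0082). Both were lowest in MCD replicate 3, which still exceeded every control array. The beta-glucan receptor Clec7a (log2 fold change 2.43, SE 0.46, adjusted p = 0.00201) and Trem2 (log2 fold change 1.37, SE 0.30, adjusted p = 0.00587) rose as well. Since whole liver was used, more cells of a type and more RNA per cell cannot be told apart here. Of markers of resident Kupffer cells, 2 of 10 measured rose (0 without control replicate 2 or MCD replicate 1, 2 or 3 and 1 without control replicate 1 or 3) and 0 fell, at a median of 0.40 log2 units, with the scavenger receptor Marco and the lectin Clec4f as the rises. The call of Marco was lost without any one of the 6 arrays (adjusted p 0.0889 to 0.14) and that of Clec4f without control replicate 2 (adjusted p = 0.107), control replicate 3 (adjusted p = 0.133), MCD replicate 1 (adjusted p = 0.0553), MCD replicate 2 (adjusted p = 0.124) or MCD replicate 3 (adjusted p = 0.0847). The phosphatidylserine receptor Timd4 did not pass (-0.24, adjusted p = 0.623). Of markers of monocyte-derived macrophages, 2 of 10 measured rose (0 without MCD replicate 2 and 1 without control replicate 1 or 2 or MCD replicate 1 or 3) and 0 fell, at a median of 0.66 log2 units. The integrin Itgax (log2 fold change 1.83, SE 0.45, adjusted p = 0.014) was lost without MCD replicate 2 (adjusted p = 0.0732). Ly6c2 was lost without control replicate 1 (adjusted p = 0.11), control replicate 2 (adjusted p = 0.0857), MCD replicate 1 (adjusted p = 0.164), MCD replicate 2 (adjusted p = 0.0566) or MCD replicate 3 (adjusted p = 0.0515).

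None of the 10 neutrophil and none of the 14 T and NK cell markers passed. Their median control levels were 2.57 and 3.23, below the median of all genes (3.83). Over all arrays only 1 of the 10 and 3 of the 14 lay above that median, so the lack of calls says little about these cells. Their summed levels were 73.12 to 83.27 in the control arrays and 80.68 to 88.63 in the MCD arrays for neutrophils, and 173.7 to 206.5 in the control arrays and 159.0 to 170.0 in the MCD arrays for T and NK cells. The T cell receptor subunit Cd3e was at a log2 fold change of 0.02 (adjusted p = 0.98). The neutrophil gene S100a8 stayed between 1.78 and 2.56 in all 6 arrays. Of B and plasma cell markers, 1 of 8 measured rose and 0 fell, at a median of 0.04 log2 units. The rise was the lectin Cd22 (log2 fold change 0.61, SE 0.13, adjusted p = 0.00666), and their summed level was 97.24 to 101.7 in the control arrays and 109.9 to 122.3 in the MCD arrays. Of erythroid markers, 0 of 5 measured rose and 1 fell (0 without control replicate 1 or 2 or MCD replicate 2), at a median of -0.38 log2 units. The heme synthesis enzyme Alas2 fell (log2 fold change -1.67, SE 0.44, adjusted p = 0.0225), a call lost without control replicate 1 (adjusted p = 0.0764), control replicate 2 (adjusted p = 0.0617) or MCD replicate 2 (adjusted p = 0.109). The summed erythroid level was 298.4 to 405.0 in the control arrays and 130.8 to 173.2 in the MCD arrays, with no overlap, and the part of blood in the other results was not tested. Of sinusoidal endothelial markers, 1 of 12 measured rose (0 without control replicate 1 or 2 or MCD replicate 1) and 0 fell, at a median of -0.14 log2 units. The hyaluronan receptor Lyve1 rose (0.71, adjusted p = 0.0226), a call lost without control replicate 1 (adjusted p = 0.0818), control replicate 2 (adjusted p = 0.0772) or MCD replicate 1 (adjusted p = 0.154). Pecam1 (-0.12, adjusted p = 0.771) and the scavenger receptor Stab2 (-0.23, adjusted p = 0.724) did not pass, and the summed endothelial level was 2731 to 2938 in the control arrays and 1949 to 3545 in the MCD arrays. Of muscle and pancreas markers, 0 of 7 measured rose and 0 fell, at a median of -0.10 log2 units.

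Chemokines and inflammatory mediators had a positive log2 fold change in 20 of 26 members but few passed: 2 of 26 measured rose (4 without control replicate 3) and 0 fell, at a median of 0.65 log2 units. The chemokine Cxcl16 (log2 fold change 0.87, SE 0.17, adjusted p = 0.00289) and the receptor Tlr2 (log2 fold change 0.66, SE 0.14, adjusted p = 0.00598) rose. Ccl2 (0.92, adjusted p = 0.0683), Cxcl10 (1.11, adjusted p = 0.111), Il1b (0.92, adjusted p = 0.314) and Tnf (0.37, adjusted p = 0.479) did not pass. In 12 of the 26 all MCD arrays lay above all control arrays, against 11.4% of all genes. The 2 rises were 7.69% of the list, against 3.62% of all genes. Of the lysosome and proton pump genes, 11 of 24 measured rose (6 without MCD replicate 1 and 7 without control replicate 2) and 1 fell, at a median of 0.42 log2 units. Cathepsin S, Ctss (log2 fold change 1.52, SE 0.31, adjusted p = 0.00383), and cathepsin D, Ctsd (log2 fold change 1.02, SE 0.14, adjusted p = 7.6e-05), rose. Cathepsin L, Ctsl, rose by 1.15 (adjusted p = 0.0205), a call lost without control replicate 1 (adjusted p = 0.123), control replicate 2 (adjusted p = 0.0543), MCD replicate 1 (adjusted p = 0.0951) or MCD replicate 2 (adjusted p = 0.0933). The beta-galactosidase Glb1 was 6.63, 6.17 and 6.34 in the control arrays and 5.03, 5.07 and 5.09 in the MCD arrays (log2 fold change -1.31, SE 0.14, adjusted p = 4.3e-06), the only fall.

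Part of the matrix genes rose, and part of the markers of the stellate cells that make the matrix. Of collagens, matrix and activation genes, 14 of 31 measured rose (7 without MCD replicate 1 and 9 without control replicate 3 or MCD replicate 2) and 0 fell, at a median of 0.60 log2 units. The proteoglycan lumican, Lum, was 4.38, 4.70 and 4.24 in the control arrays and 6.99, 6.56 and 6.19 in the MCD arrays (log2 fold change 2.14, SE 0.32, adjusted p = 1.6e-04). Col1a1 was 5.51, 5.28 and 6.0 in the control arrays and 7.39, 7.46 and 6.46 in the MCD arrays (log2 fold change 1.51, SE 0.31, adjusted p = 0.0038). Col3a1 was 5.28, 5.64 and 5.49 in the control arrays and 7.13, 7.33 and 6.22 in the MCD arrays (log2 fold change 1.42, SE 0.31, adjusted p = 0.00677). In both MCD replicate 3 was the lowest of the MCD arrays. Neither Acta2, the actin of activated stellate cells (0.66, adjusted p = 0.284), nor the protease inhibitor Timp1 (0.37, adjusted p = 0.523) passed. Of stellate cell markers, 4 of 10 measured rose (2 without control replicate 1, 2 or 3 or MCD replicate 1 or 3) and 0 fell, at a median of 0.49 log2 units. Decorin, Dcn (log2 fold change 1.28, SE 0.14, adjusted p = 2.9e-06), and the retinol-esterifying enzyme Lrat (log2 fold change 1.08, SE 0.19, adjusted p = 0.00102) held with every array left out. The calls of Hgf and of the receptor Pdgfrb, which is also a matrix list member, did not. Pdgfrb was lost without any one of the 6 arrays (adjusted p 0.0589 to 0.239) and Hgf without control replicate 1 (adjusted p = 0.0638), control replicate 2 (adjusted p = 0.0593), control replicate 3 (adjusted p = 0.151), MCD replicate 1 (adjusted p = 0.201) or MCD replicate 3 (adjusted p = 0.0825). The summed level of the 10 stellate markers was 1357 to 1777 in the control arrays and 2617 to 3298 in the MCD arrays, and the part of cell number in the matrix genes was not tested. Of cholangiocyte markers, 2 of 9 measured rose (1 without control replicate 2 or 3 or MCD replicate 1 or 2) and 0 fell, at a median of 0.37 log2 units, and their summed level was 697.3 to 934.8 in the control arrays and 1123 to 2698 in the MCD arrays. The rises were Sprr1a and the tetraspanin-like protein Tm4sf4 (0.87, adjusted p = 0.0328), lost without control replicate 2 (adjusted p = 0.156), control replicate 3 (adjusted p = 0.0537), MCD replicate 1 (adjusted p = 0.172) or MCD replicate 2 (adjusted p = 0.147). The defining keratins Krt7 (adjusted p = 0.691) and Krt19 (adjusted p = 0.113) did not pass with all arrays, although Krt19 passed without MCD replicate 3 (adjusted p = 0.0299). The cholangiocyte list was chosen with earlier results of these data known, and Sprr1a is among the largest rises named above. The count and the summed level of this list, which both include Sprr1a, are therefore descriptions and no measure of cholangiocyte number. Which cells gave the sum was not tested.

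About as many genes of DNA replication and mitosis rose as did not pass: 20 of 39 measured rose and 0 fell, at a median of 0.76 log2 units. Cyclin D1, Ccnd1, which drives the G1 to S transition, was 6.33, 6.94 and 5.97 in the control arrays and 10.45, 10.27 and 10.18 in the MCD arrays (log2 fold change 3.89, SE 0.27, adjusted p = 1.2e-08). Its rise exceeded that in HepCAV1ko females (difference 2.58, SE 0.39, adjusted p = 0.00219). The sexes were further apart under the control diet, with means of 6.41 in males and 8.85 in females. Under the MCD diet the means were 10.30 and 10.16, so males did not reach a clearly higher level. The replicative helicase subunits Mcm6 (log2 fold change 2.14, SE 0.33, adjusted p = 2.5e-04), Mcm5 (log2 fold change 1.92, SE 0.26, adjusted p = 5.3e-05) and Mcm4 (log2 fold change 1.84, SE 0.31, adjusted p = 7.2e-04) followed, each lowest in MCD replicate 2 among the MCD arrays. The proliferation antigen Mki67 rose (log2 fold change 0.88, SE 0.23, adjusted p = 0.0206), a call lost without control replicate 1 (adjusted p = 0.0953), control replicate 2 (adjusted p = 0.0696), MCD replicate 1 (adjusted p = 0.124) or MCD replicate 2 (adjusted p = 0.0511). The mitotic kinase Cdk1 was just outside the threshold (0.91, adjusted p = 0.0507) and passed without control replicate 2 (adjusted p = 0.0406) or MCD replicate 2 (adjusted p = 0.0121). In 29 of the 39 genes all MCD arrays lay above all control arrays, against 11.4% of all genes. The summed level was 1238 to 1347 in the control arrays and 3091 to 3590 in the MCD arrays. Of p53 targets and cell death genes, 5 of 20 measured rose (3 without control replicate 1 or 2 or MCD replicate 2 or 3) and 0 fell, at a median of 0.18 log2 units. Among the rises were the cell cycle inhibitor Cdkn1a (log2 fold change 1.55, SE 0.33, adjusted p = 0.00517) and the death receptor Tnfrsf10b (log2 fold change 1.10, SE 0.20, adjusted p = 0.00157). The growth arrest gene Gadd45b (1.18, adjusted p = 0.00902) was lost without control replicate 2 (adjusted p = 0.0542) or MCD replicate 2 (adjusted p = 0.0516). The necroptosis effector Mlkl (1.18, adjusted p = 0.0358) was lost without control replicate 1 (adjusted p = 0.141), control replicate 2 (adjusted p = 0.123), MCD replicate 1 (adjusted p = 0.175) or MCD replicate 3 (adjusted p = 0.0655), and its kinase Ripk3 did not pass (0.27, adjusted p = 0.394).

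Complement and coagulation proteins, which hepatocytes secrete, changed only downward among those that passed: 0 of 38 measured rose (1 without control replicate 3) and 14 fell, at a median of -0.27 log2 units. Of these falls, C6 and C4a are also on the list of male-biased genes and were counted there. The terminal complement component C6 was 10.93, 10.83 and 10.79 in the control arrays and 8.18, 7.96 and 7.96 in the MCD arrays (log2 fold change -2.82, SE 0.20, adjusted p = 1.4e-08). C8a (log2 fold change -1.78, SE 0.20, adjusted p = 5.3e-06), C8b (log2 fold change -1.75, SE 0.22, adjusted p = 2.0e-05) and C4a (log2 fold change -2.45, SE 0.25, adjusted p = 1.8e-06), the sex-limited form of C4, fell too. In these 4 the effect differed from that in HepCAV1ko females (adjusted p = 4.6e-04 for C6, 0.00106 for C8a, 0.0274 for C8b and 0.00316 for C4a). For C8b this difference was lost without 9 of the 12 arrays (adjusted p of up to 0.0782). C4a in females, at 3.64 and 3.45, lay below the median of all genes (3.83) on both diets. A fall as large as that of males could not have been measured there. C6, for example, was 10.85 ± 0.07 in control males and 8.04 ± 0.13 in MCD males, and 6.81 ± 0.22 and 6.18 ± 0.06 in the females. Hc, complement C5, was lower in all 3 MCD arrays without passing (-0.59, adjusted p = 0.439).

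Acute phase genes depended on 1 control array: 0 of 23 measured rose (5 without control replicate 3) and 1 fell (2 without control replicate 1 or 2 or MCD replicate 3), at a median of -0.19 log2 units. Without control replicate 3 the median was 0.16. Saa1, the main inducible serum amyloid, was 8.74, 8.62 and 13.10 in the control arrays and 7.69, 8.41 and 7.78 in the MCD arrays (log2 fold change -2.19, SE 0.80, adjusted p = 0.114). It passed without control replicate 2 (adjusted p = 0.0432). Without control replicate 3 its log2 fold change was -0.72 (adjusted p = 0.604). The iron-binding protein Lcn2 was 6.86, 7.37 and 12.66 in the control arrays and 10.90, 11.22 and 10.53 in the MCD arrays (log2 fold change 1.92, SE 1.01, adjusted p = 0.318), and without control replicate 3 its log2 fold change was 3.77 (adjusted p = 0.00263). The metallothionein Mt2, which glucocorticoids and metals induce, was 7.01, 6.60 and 11.28 in the control arrays and 8.31, 9.34 and 9.51 in the MCD arrays (log2 fold change 0.76, SE 0.90, adjusted p = 0.733), and its sign turned without control replicate 2. In all 3 genes control replicate 3 was the highest of the 6 arrays. The summed level of the 23 acute phase genes was 40562 and 46022 in control replicates 1 and 2, 98407 in replicate 3 and 48519 to 52256 in the MCD arrays. The constitutive form Saa4 was 11.85, 11.89 and 12.52 in the control arrays and 11.004, 10.80 and 11.27 in the MCD arrays and fell (log2 fold change -1.07, SE 0.16, adjusted p = 1.5e-04) with every array left out. The iron hormone Hamp, near the top of the array's scale, did not pass (0.44, adjusted p = 0.11) but did without control replicate 3 (adjusted p = 0.0419).

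Genes of amino acid breakdown fell in part. Of branched-chain genes, 0 of 21 measured rose (1 without control replicate 1) and 7 fell (3 without control replicate 1 or MCD replicate 1), at a median of -0.42 log2 units. The falls of largest size were the acyl-CoA dehydrogenases Acadsb (log2 fold change -0.97, SE 0.14, adjusted p = 8.6e-05) and Acad8 (log2 fold change -0.81, SE 0.13, adjusted p = 3.2e-04). The hydratase Auh (-0.62) and the carboxylase subunit Mccc2 (-0.62) fell by less. The call of Auh was lost without control replicate 1 (adjusted p = 0.119) or MCD replicate 1 (adjusted p = 0.131), and that of Mccc2 without control replicate 1 (adjusted p = 0.145), control replicate 2 (adjusted p = 0.0765), control replicate 3 (adjusted p = 0.112), MCD replicate 1 (adjusted p = 0.268) or MCD replicate 3 (adjusted p = 0.0835). Of the urea cycle and other amino acid genes, 1 of 29 measured rose (0 without control replicate 1, 2 or 3 or MCD replicate 1 or 2) and 6 fell (10 without MCD replicate 3), at a median of -0.16 log2 units. The pyrimidine-degrading enzyme Dpys was 9.77, 9.82 and 9.38 in the control arrays and 6.72, 7.05 and 7.28 in the MCD arrays (log2 fold change -2.64, SE 0.33, adjusted p = 2.7e-05). Ido2 (log2 fold change -1.62, SE 0.30, adjusted p = 0.00151) and Kynu (log2 fold change -1.07, SE 0.16, adjusted p = 1.8e-04) of tryptophan breakdown fell, as did Amdhd1 of histidine breakdown (log2 fold change -0.85, SE 0.15, adjusted p = 9.7e-04). Glutamine synthetase, Glul, was the rise (0.55, adjusted p = 0.045), lost without any one of the 6 arrays (adjusted p 0.0638 to 0.17). The transaminase Got1 (-0.16, adjusted p = 0.863) and Arg1 (adjusted p = 0.853) and Cps1 (adjusted p = 0.956) of the urea cycle did not pass. Of glycolysis and gluconeogenesis, 1 of 20 measured rose (0 without control replicate 1 or 3 or MCD replicate 1, 2 or 3) and 4 fell (0 without control replicate 3 or MCD replicate 2 and 1 without control replicate 2 or MCD replicate 1 and 2 without control replicate 1 or MCD replicate 3), at a median of -0.11 log2 units. Among these calls that of the 6-phosphofructo-2-kinase Pfkfb3 was the largest (log2 fold change -1.37, SE 0.34, adjusted p = 0.015) and was lost without control replicate 3 (adjusted p = 0.0708), MCD replicate 2 (adjusted p = 0.0677) or MCD replicate 3 (adjusted p = 0.0539). The gluconeogenic phosphatase Fbp1 fell (-0.53, adjusted p = 0.0431), lost without control replicate 1 (adjusted p = 0.144), control replicate 2 (adjusted p = 0.0874), control replicate 3 (adjusted p = 0.0629), MCD replicate 1 (adjusted p = 0.167) or MCD replicate 2 (adjusted p = 0.121). The insulin receptor Insr fell (-0.54, adjusted p = 0.0225), lost without control replicate 2 (adjusted p = 0.0617), control replicate 3 (adjusted p = 0.107), MCD replicate 1 (adjusted p = 0.079) or MCD replicate 2 (adjusted p = 0.0652). The hexokinase Hk1 was the rise (0.53, adjusted p = 0.0397), lost without control replicate 1 (adjusted p = 0.0714), control replicate 3 (adjusted p = 0.198), MCD replicate 1 (adjusted p = 0.0843), MCD replicate 2 (adjusted p = 0.118) or MCD replicate 3 (adjusted p = 0.0889). G6pc (-1.47, adjusted p = 0.424) and Pck1 (-0.34, adjusted p = 0.228), the enzymes that commit carbon to glucose release, did not pass.

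Conjugating enzymes split: 5 of 23 measured rose and 8 fell (5 without control replicate 1 or MCD replicate 2), at a median of -0.08 log2 units. Beside the rise of Sult1e1, the glucuronosyltransferases Ugt2b38 (log2 fold change -2.69, SE 0.50, adjusted p = 0.00172) and Ugt3a1 (log2 fold change -1.83, SE 0.21, adjusted p = 1.0e-05) and the bile acid sulfotransferase Sult2a8 (log2 fold change -1.62, SE 0.23, adjusted p = 8.7e-05) fell. Ugt2b1 fell by 0.94 on the log2 scale (adjusted p = 0.00275). Few genes passed in oxidative phosphorylation, where 1 of 29 measured rose (0 without control replicate 3 or MCD replicate 2) and 1 fell, at a median of 0.03 log2 units. Each was 3.45% of the list, near the shares of all genes, 3.62% for rises and 3.02% for falls. Of the subunits of cytochrome oxidase, Cox5b fell (log2 fold change -0.93, SE 0.18, adjusted p = 0.00221) and Cox6a1 rose (0.47, adjusted p = 0.0132), the latter lost without control replicate 3 (adjusted p = 0.06) or MCD replicate 2 (adjusted p = 0.0504). In the circadian clock 0 of 18 measured rose and 1 fell, at a median of -0.37 log2 units, and the fall was Ciart (log2 fold change -0.82, SE 0.18, adjusted p = 0.00829). The clock genes Arntl (0.05, adjusted p = 0.949), Nr1d1 (-0.96, adjusted p = 0.254) and Dbp (-0.67, adjusted p = 0.0585) did not pass. Of the caveolae genes, 0 of 10 measured rose and 0 fell, at a median of 0.05 log2 units. Of 9 hepatocyte markers none passed, and albumin, Alb, took only the values 13.46 and 13.53. In the list of metallothioneins, iron and glucocorticoid response, 2 of 21 measured rose (1 without control replicate 2 or MCD replicate 1 or 2) and 3 fell, at a median of 0.25 log2 units. The helix-loop-helix factor Id1, a target of BMP signals, was 4.95, 5.33 and 4.56 in the control arrays and 6.98, 7.47 and 6.73 in the MCD arrays (log2 fold change 2.12, SE 0.33, adjusted p = 3.1e-04). The glucocorticoid receptor Nr3c1 fell (log2 fold change -0.49, SE 0.11, adjusted p = 0.00617). The ferritin light chain Ftl1 fell from 2.44 to 1.57, both below the median of all genes (log2 fold change -0.86, SE 0.17, adjusted p = 0.00292). The factor Klf9 fell by 0.57 (adjusted p = 0.0376), a call lost without control replicate 3 (adjusted p = 0.199), MCD replicate 1 (adjusted p = 0.186) or MCD replicate 3 (adjusted p = 0.14), and the metallothionein Mt1 did not pass (0.49, adjusted p = 0.74).

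**Figure D4:**
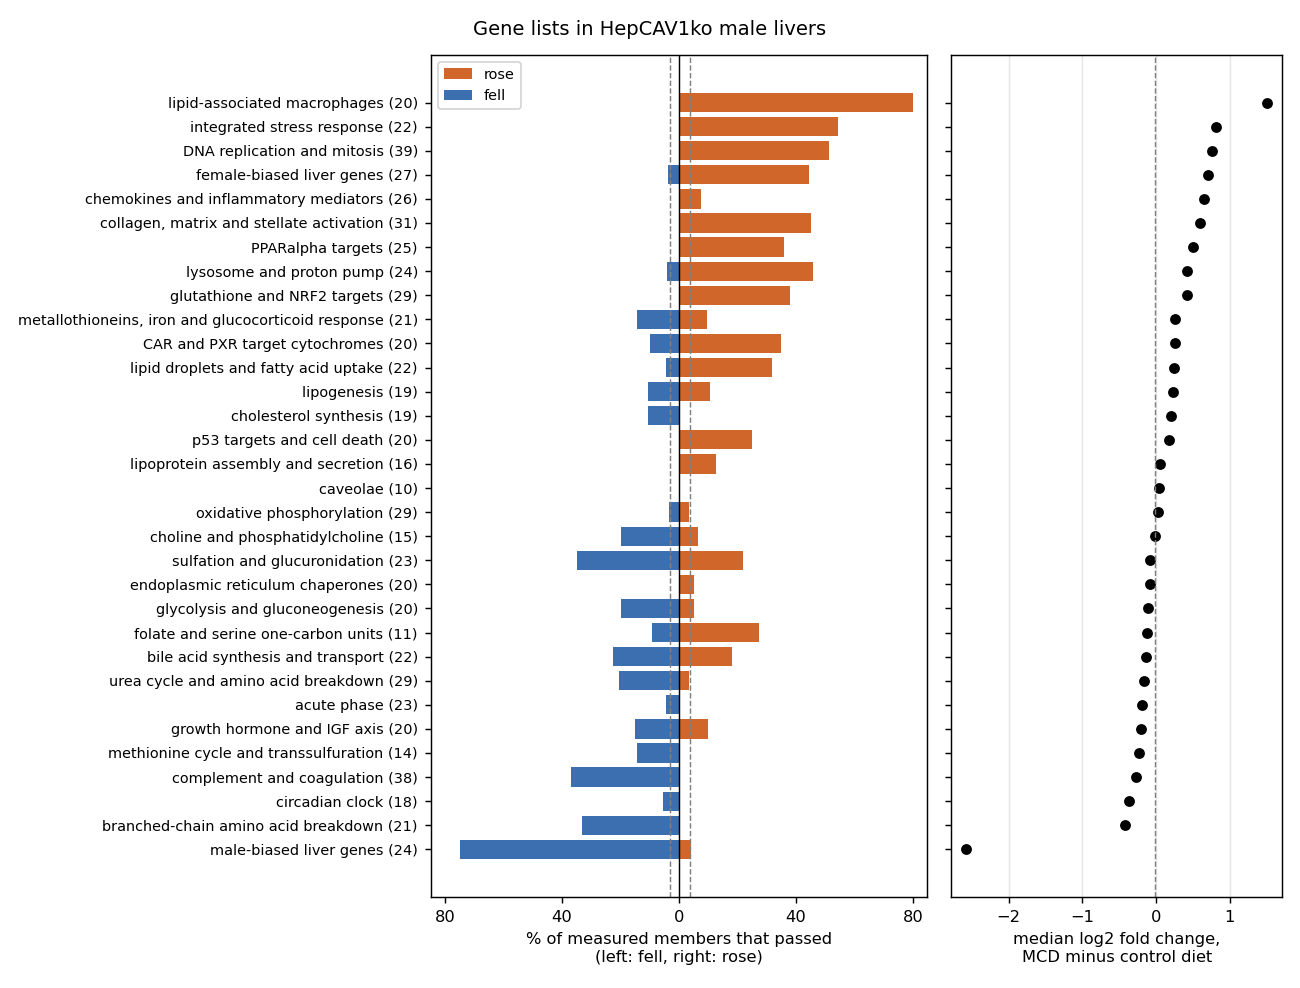
Share of the measured members of each gene list that rose (right) or fell (left) on the MCD diet in HepCAV1ko males, with the number measured in brackets and dashed lines at the shares of all genes, 3.62% and 3.02% (left panel), and the median log2 fold change of each list with a dashed line at that of all genes, -0.02 (right panel). Lipid-associated macrophage genes had the highest median, 1.51, and male-biased genes the lowest, -2.57.

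Whether the hepatocyte deletion of Cav1 altered the diet response was tested as the difference between the diet effects of HepCAV1ko and HepCAV1wt males. It passed in 1 of 24704 genes (0.00405%), by limma. An unadjusted p under 0.05 was found in 1136, fewer than that threshold lets through on average where no gene differs. The gene that passed was Cyp2c39, a retinoic acid and arachidonic acid hydroxylase of the Cyp2c family (difference -2.56, SE 0.33, adjusted p = 0.00306). The count was 0 when the spread came only from the 12 arrays of these 4 groups. In HepCAV1ko males it was 6.60, 6.03 and 6.67 in the control arrays and 6.12, 7.24 and 6.77 in the MCD arrays, with overlapping groups (log2 fold change 0.27, SE 0.23, adjusted p = 0.597). In HepCAV1wt males its mean was 3.62 ± 0.27 (SD, n = 3) under the control diet and 6.46 ± 0.18 under the MCD diet, so that the WT control group was the one that stood apart. In HepCAV1ko females it was 7.06 ± 0.32 and 6.995 ± 0.05. The next smallest p-values, of the forkhead factor Foxq1 (difference 2.59, adjusted p = 0.306), the immunoglobulin segment Ighv3-1 (-1.14, adjusted p = 0.306) and Wnt8a (-0.84, adjusted p = 0.599), did not pass. The Foxq1 difference passed if HepCAV1ko control male replicate 3 (3.02, adjusted p = 0.0259) or HepCAV1wt control male replicate 2 was left out (3.13, adjusted p = 0.00478). For the genes described above the 2 effects stood side by side at 7.15 and 8.22 for Cyp2b9, -6.64 and -4.90 for Moxd1, 3.00 and 1.97 for Asns and 5.40 and 4.86 for Mmp12 in HepCAV1ko and HepCAV1wt males. None of these differences passed with all arrays. That of Moxd1 was -1.73 (adjusted p = 0.873) and passed once HepCAV1wt control male replicate 1 was left out (-2.36, adjusted p = 0.00417).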

How the data were processed

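Per the labels and the study's methods, total RNA of whole liver was hybridised to Affymetrix MoGene 2.0 ST arrays, 1 per sample. The deposited values are log2 expression values that the authors made with RMA, as their processing notes name it (version and annotation not given in the sources used here), which subtracts background, sets every array to 1 distribution and summarises probes per gene; differences in total RNA between livers are therefore removed, and values at both ends of the scale are compressed. The number of arrays limits the precision. Of 25428 features, 24705 had a gene symbol, 24673 through the RefSeq gene table and 32 through the platform annotation only; 723 had none. Of 2 features with 1 symbol the brighter was kept, which left 24704 genes.

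Groups came from the labels. In R 4.3.3 with limma 3.58.1, 1 mean per group was fitted over all 24 arrays, followed by moderated tests (16 residual degrees of freedom, 21.3 with the prior) and Benjamini-Hochberg adjustment over all genes; genes under an adjusted p of 0.05 were said to pass. Differences between diet effects were contrasts of the same fit. The fit was tested on simulated data. Gene lists had 893 entries, of which 821 were measured here. The members and lists were chosen with earlier results of these data known. The text named the 12 largest rises and falls without overlap, from each list up to 4 calls of largest size and its anchor genes, up to 8 genes per difference of diet effects (the 4 of smallest p where fewer than 4 passed), and Cav1; genes outside this rule are named as such. Marker sums add 2 to the power of the log2 value within an array. Promoters were the first listed per gene in RefSeq (GRCm38.p6). Alternatives were a fit of the compared arrays only, the methods' t-test, array weights, an intensity-dependent variance prior, a filter on dim genes, median centring, all features, replicate numbers as a block and each array left out.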

Additional observations from a re-analysis of the deposited data

Results flagged for a closer look

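The diet effect of HepCAV1ko males differed from that of HepCAV1wt males in Cyp2c39 (difference on the log2 scale -2.56), which held with each of 12 arrays left out (adjusted p of up to 0.0201) but not when the spread came only from the arrays compared. HepCAV1wt control males, at 3.62 ± 0.27, were the group that stood apart.

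The effect differed between HepCAV1ko males and females, as the difference of the log2 fold changes, in the following genes named above. It was higher in males for Cyp2b9 (7.62), Cyp3a16 (5.66), Sult3a1 (4.68), Slc22a26 (3.92), Cyp2b13 (3.71), Cyp2a4 (3.62), Cyp2c38 (3.44), Slc16a5 (2.59), Ccnd1 (2.58), Atp6v0d2 (2.35), Nt5e (2.23) and Gstm2 (1.09). It was lower in males for Moxd1 (-6.69), Cyp4a12a (-4.42), Mup21 (-3.82), Cyp2d9 (-3.21), Gm4450 (-3.07), Cyp7b1 (-2.43), C4a (-2.27), C6 (-2.19), C8a (-1.98), C8b (-1.59) and Ftl1 (-1.40). The limits of measurement given above for Moxd1, Cyp4a12a, C4a, Mup21, Gm4450, Ftl1, Cyp2b9, Cyp2a4, Cyp2b13, Cyp3a16 and Sult3a1 hold here too. The calls of Mup21 (adjusted p of up to 0.0995) and Slc22a26 (up to 0.101) were lost without 10 of the 12 arrays each, and held only without HepCAV1ko control male replicate 3 or MCD female replicate 1 for Mup21, and without MCD male replicate 1 or MCD female replicate 3 for Slc22a26. C8b held only without control female replicate 2 or 3 or MCD female replicate 3 (otherwise up to 0.0782). Gstm2 was lost without 7 arrays (up to 0.0899), namely control male replicates 2 and 3, control female replicate 2, MCD male replicates 1 and 2 and MCD female replicates 2 and 3. Atp6v0d2 was lost without 5 (up to 0.076), namely control male replicate 1, control female replicates 1 and 2, MCD male replicate 3 and MCD female replicate 3.

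Of 723 features without a gene symbol, which no gene list above uses, 45 passed between the diets in HepCAV1ko males, 25 higher and 20 lower. Their share was near that of the genes with a symbol, of which 6.64% passed (3.62% higher and 3.02% lower).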

How the results depend on the processing

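The precision is limited by 3 arrays per group. The count of 1640 genes was 1604 to 1902 under array weights, a variance prior with an intensity trend, median centring, all features and a filter on dim genes. With only the 6 arrays compared it was 1144, of which 454 fell. The methods' t-test on those arrays gave 3790 genes at its unadjusted threshold, and after Benjamini-Hochberg adjustment 1 gene, C8b, which fell, and 0 that rose. With the same settings the males minus females comparison went from 43 genes to 30 (11 lower) with only the arrays compared and to 8 (5 higher, 3 lower) by the model without moderated variances, and the comparison with HepCAV1wt males went to 0 genes under both, with 1055 and 1034 unadjusted. Both unadjusted counts were below what their threshold lets through on average where no gene differs. Leaving out single arrays gave 913 to 1255 genes in the diet comparison (510 to 714 higher, 403 to 567 lower), 28 to 45 in males minus females (15 to 26 higher, 11 to 20 lower) and 1 to 2 in the comparison with HepCAV1wt males (0 to 1 higher, 1 to 2 lower). The counts without each array were, for the controls, 1237 (replicate 1), 1240 (replicate 2) and 1082 (replicate 3) and, for MCD, 913, 1159 and 1255; the number of genes moved by more than 1.5 times without control replicate 3 and MCD replicate 1. Of 137 genes named above that passed, 110 to 119 passed with single arrays left out, 103 with only the arrays compared and 1 by the t-test, and all 137 kept their sign under each of these. The filter on dim genes tested 128 of the 137, and all 128 passed. It left out C4a, Cox5b, Ftl1, Ighv3-1, Psat1, Slc7a11, Tnfrsf10b, Ugt2b38 and Wnt8a, whose mean levels were below the median of all genes. Signs turned only in genes that had not passed. Over single arrays left out, log2 fold changes were -0.83 to 0.10 for Acot1, -0.0824 to 0.2445 for Arntl (-0.0333 with array weights), -0.0542 to 0.0710 for Cd3e, -0.0384 to 0.0736 for Cps1, -0.31 to 0.0558 for Cux2, -0.3587 to 0.0602 for Got1, -0.0426 to 1.51 for Mt1, -0.0889 to 2.25 for Mt2, -0.2661 to 0.0332 for Pecam1, -0.0180 to 0.0814 for Socs2, -0.5249 to 0.2222 for Stab2, -0.21 to 0.21 for Sult2a1 (0.0431 with array weights) and -0.0116 to 0.0491 for Sult3a1. The cause of these changes was not tested.

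No label says that a replicate number pairs arrays, and same-numbered arrays did not deviate together (correlations of their deviations from the group means of -0.01, -0.11 and -0.10 across genes). With the replicate block 1789 genes passed, 135 of those 137 among them and 1591 of the 1640, and the counts of the differences were 50 (males minus females) and 1 (HepCAV1ko minus HepCAV1wt males).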
